A study of Mus musculus with 12 samples.

Results

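The genes described here are 39 genes that copy the genome in S phase: origin licensing factors, the MCM helicase and its activators, the replicative polymerases with their clamp and clamp loader, and factors for single strands, nucleotides and histones. They were chosen by symbol, all 39 were measured, and they are a subset of 19937 genes with a probe set that named 1 gene. RNA of Lewis lung carcinoma tissue, resected from the lungs of female C57BL/6 mice, had been hybridised to 12 Affymetrix arrays. The Lewis carcinoma is a tumour line passed between mice of that strain, and tissue resected around it may contain host lung as well as tumour. The 4 groups of 3 arrays were RelA/p65 deficient hosts with smoke exposure, RelA/p65 deficient hosts in air, wild type hosts with smoke exposure, and wild type hosts in air. RelA/p65 is one of the proteins that form the transcription factor NF-kB. All groups shared the tumour line, sex and strain. Myeloid cells are named in the title of the series, while the labels state neither the deleted part of the gene, nor a Cre driver, nor the age of the mice or the length of exposure.

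Rela, the gene that encodes RelA/p65, read 9.30, 9.37 and 9.27 in deficient smoke, 9.45, 9.44 and 9.38 in deficient air, 9.04, 9.01 and 9.19 in wild type smoke and 9.25, 9.16 and 9.26 in wild type air (log2 expression). It was therefore not lower in the arrays labelled deficient, where it was higher by 0.23 ± 0.07 in smoke (adjusted p = 0.00873) and 0.20 ± 0.07 in air (adjusted p = 0.0285). Both calls were lost with arrays centred on their median over the genes tested, at 0.09 in smoke (adjusted p = 0.213) and 0.12 in air (adjusted p = 0.142), and without the 4 arrays numbered 1. That in air was also lost without deficient air replicate 1 or 2 or wild type air replicate 2. The position of the deleted part relative to the probes is not given in the sources used here. The deficiency is also a label of the hosts, while the tumour line was shared by all groups. How much of the Rela RNA came from deficient cells was not tested. The groups are accordingly called by their labels. Median log2 expression over all probe sets was 6.78 to 6.88 per array, and arrays of 1 group correlated at r = 0.990 to 0.998 across genes. Over the genes tested, array medians were 7.26 to 7.51, lowest in the wild type smoke arrays, at 7.26, 7.32 and 7.36. Whether replicates were separate animals is not stated, and the p-values therefore cover the spread among these arrays alone, which may be technical.

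Replication starts when the origin recognition complex, Cdc6 and Cdt1 load the ring-shaped MCM complex on DNA in G1. Cyclin dependent and Dbf4 dependent kinases then bring in Cdc45 and the GINS complex, which turn the ring into a moving helicase. Polymerase alpha with primase lays down primers, polymerases epsilon and delta extend them on the leading and lagging strands, and the clamp that holds them to DNA is loaded by replication factor C. Most of these genes are transcribed late in G1 under E2F factors, and their levels are high in dividing cells such as those of a growing tumour. Levels below are log2 expression on the authors' scale, differences are log2 differences ± SE from limma, and adjusted p-values run over all 19937 genes.

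E2F motifs, for which replication genes are known, were looked for in their promoters. RefSeq promoter windows (GRCm38.p6; 250 bases before to 50 after the annotated start, 300 bases) were given for 32 of the 39 genes. The 7 others are Rfc2, Gins1, Gins2, Gins4, Prim2, Pole and Mcm4. Windows were searched on both strands for TTTGGCGC, TTTCCCGC, TTTCGCGC and TTTGCCGC. A match was present in 14 of the 32 genes (43.8%), against 529 of the other 15581 genes tested with a window (3.4%). Counted by window, as a gene can have several, it was present in 37.8% of their 37 windows and 2.26% of all 32851 windows given. The 20 matches were 7 of TTTGGCGC, 7 of TTTCCCGC, 6 of TTTCGCGC and 0 of TTTGCCGC, and 13 of them began within 50 bases of the start. The windows of Mcm6, Mcm5, Orc1, Pole2 and Pold3 are printed because their genes span the results: Mcm6, Mcm5 and Pole2 were among the genes with large differences between genotypes, Orc1 had the largest difference between smoke and air in wild type hosts, and Pold3 had the smallest between genotypes. Each runs 5′ to 3′ on the strand of the gene, with E2F matches in capitals. The windows lie at chr1:128359656-128359955 (minus strand) for Mcm6, chr8:75109259-75109558 (plus strand) for Mcm5, chr4:108579204-108579503 (plus strand) for Orc1, chr12:69228141-69228440 (minus strand) for Pole2 and chr7:100121453-100121752 (minus strand) for Pold3.
Mcm6: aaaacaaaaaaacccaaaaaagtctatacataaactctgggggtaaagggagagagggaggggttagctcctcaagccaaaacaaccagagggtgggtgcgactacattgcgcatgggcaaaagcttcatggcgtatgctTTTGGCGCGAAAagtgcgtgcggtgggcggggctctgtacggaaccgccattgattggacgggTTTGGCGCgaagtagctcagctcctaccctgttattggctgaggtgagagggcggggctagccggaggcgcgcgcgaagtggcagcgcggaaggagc
Mcm5: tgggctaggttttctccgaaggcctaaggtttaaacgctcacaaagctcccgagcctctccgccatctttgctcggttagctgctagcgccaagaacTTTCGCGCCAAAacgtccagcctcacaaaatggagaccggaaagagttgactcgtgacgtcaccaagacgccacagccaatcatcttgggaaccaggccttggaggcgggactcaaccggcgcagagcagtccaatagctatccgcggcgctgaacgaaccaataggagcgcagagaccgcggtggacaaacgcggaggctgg
Orc1: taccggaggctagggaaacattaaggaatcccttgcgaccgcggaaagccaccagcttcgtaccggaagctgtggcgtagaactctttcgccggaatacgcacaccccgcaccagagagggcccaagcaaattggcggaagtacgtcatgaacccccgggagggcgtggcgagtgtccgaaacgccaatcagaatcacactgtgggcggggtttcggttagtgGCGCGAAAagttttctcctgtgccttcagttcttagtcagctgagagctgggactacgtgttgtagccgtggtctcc
Pole2: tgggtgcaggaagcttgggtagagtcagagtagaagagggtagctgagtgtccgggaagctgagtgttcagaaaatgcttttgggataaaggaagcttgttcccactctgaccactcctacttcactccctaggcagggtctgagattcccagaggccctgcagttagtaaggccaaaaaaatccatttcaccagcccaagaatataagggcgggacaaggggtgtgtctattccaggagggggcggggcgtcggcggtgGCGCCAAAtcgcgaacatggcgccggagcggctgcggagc
Pold3: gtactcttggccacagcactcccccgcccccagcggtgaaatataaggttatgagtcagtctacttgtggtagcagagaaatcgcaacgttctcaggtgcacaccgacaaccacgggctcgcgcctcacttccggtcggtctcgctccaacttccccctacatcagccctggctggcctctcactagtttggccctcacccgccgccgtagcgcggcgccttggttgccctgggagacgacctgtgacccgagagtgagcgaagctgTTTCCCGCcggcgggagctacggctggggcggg
In Mcm6, TTTGGCGC began at base -110 from the start and overlapped TTTCGCGC on the other strand, which began at -106, and a further TTTGGCGC began at -47. Mcm5 carried a like overlapping pair in the opposite order, TTTCGCGC at -153 and TTTGGCGC on the other strand at -149. Orc1 had TTTCGCGC on the other strand at -27, Pole2 had TTTGGCGC on the other strand at 11, and Pold3 had TTTCCCGC at 18. Pold3, the gene that differed least between genotypes, thus holds a match as Mcm6 and Mcm5 do. A match is a description of the letters in the window, not a binding site or a cause.

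Other promoter letters differed less from the rest. CCAAT, bound by the factor NF-Y, was present in 65.6% of the 32 genes against 41.6% of the other genes tested, and GGGCGG, the GC box, in 75% against 52.9%. TTTGAA or TTCGAA, forms of the element found in promoters of G2 and mitotic genes, was present in 21.9% against 19%. Among the 39 genes, those with an E2F match had a median difference, deficient minus wild type, of -1.05 in smoke and -0.78 in air (14 genes). Those with a window and no match had -0.89 and -0.71 (18 genes). In smoke the genes ran from -1.28 to -0.37 with a match and from -1.18 to -0.43 without. In air they ran from -1.04 to -0.09 and from -1.14 to -0.20. The difference between genes with and without a match was not tested. The tested genes outside the 39 still include the other genes of replication and S phase described below. On that list, 16 of the 54 genes with a window had a match. Among all tested genes outside the 39, 46.7% with a match and 36.4% without were lower in deficient smoke arrays than in wild type smoke arrays. In air these shares were 32.9% and 17.6%. The median differences were close: -0.176 with a match and -0.133 without in smoke, and -0.098 and -0.027 in air.

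The first array of each group tended to be the highest for these genes. Replicate 1 was the highest of its group for 38 of the 39 genes in deficient smoke, 36 in deficient air, 28 in wild type smoke and 35 in wild type air. What sets these arrays apart is not given in the sources used here, and the main counts are given with and without them.

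The main comparison asks how the replication genes differed between tumours of deficient and wild type hosts. In smoke, all 39 were lower in the deficient arrays, the 3 deficient arrays lay below the 3 wild type arrays for each of them, and the median difference was -0.95. In air, 36 of 39 were lower and 0 higher, 37 did not overlap, and the median was -0.76. The background was broad: 37.0% of all genes tested were lower in the deficient arrays in smoke and 18.0% in air, 22.7% and 20.5% were higher, and 59.6% and 38.5% passed in either direction, with medians of -0.14 and -0.03. Groups did not overlap, with the deficient arrays lower, for 37.6% of all genes in smoke and 26.3% in air, and with the deficient arrays higher for 23.6% and 25.6%. With each array centred on its median over the genes tested, 60.1% of all genes were lower and 17.8% higher in smoke, and 25.8% lower and 16.9% higher in air, while 39 and 38 of the replication genes were lower. In bulk tissue, fewer cells of a type and less RNA per cell cannot be told apart. The mean over the 39 genes was 8.79, 8.45 and 8.54 in the deficient smoke arrays, 8.66, 8.47 and 8.52 in deficient air, 9.58, 9.46 and 9.47 in wild type smoke and 9.38, 9.16 and 9.22 in wild type air. Every deficient array was thus below every wild type array, by this mean. Without the 4 arrays numbered 1, the count lower in deficient arrays was 39 in smoke and 36 in air. Markers of other cells moved too: all 9 alveolar epithelial markers were higher in the deficient arrays, by a median of 2.77 in smoke and 0.83 in air. Of 8 macrophage and monocyte markers, 5 were lower and 1 higher there in smoke, and 0 lower and 7 higher in air. Of 5 fibroblast markers, 3 were lower and 2 higher in smoke, and 2 lower and 2 higher in air. Their part in the differences was not tested.

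**Figure D1:**
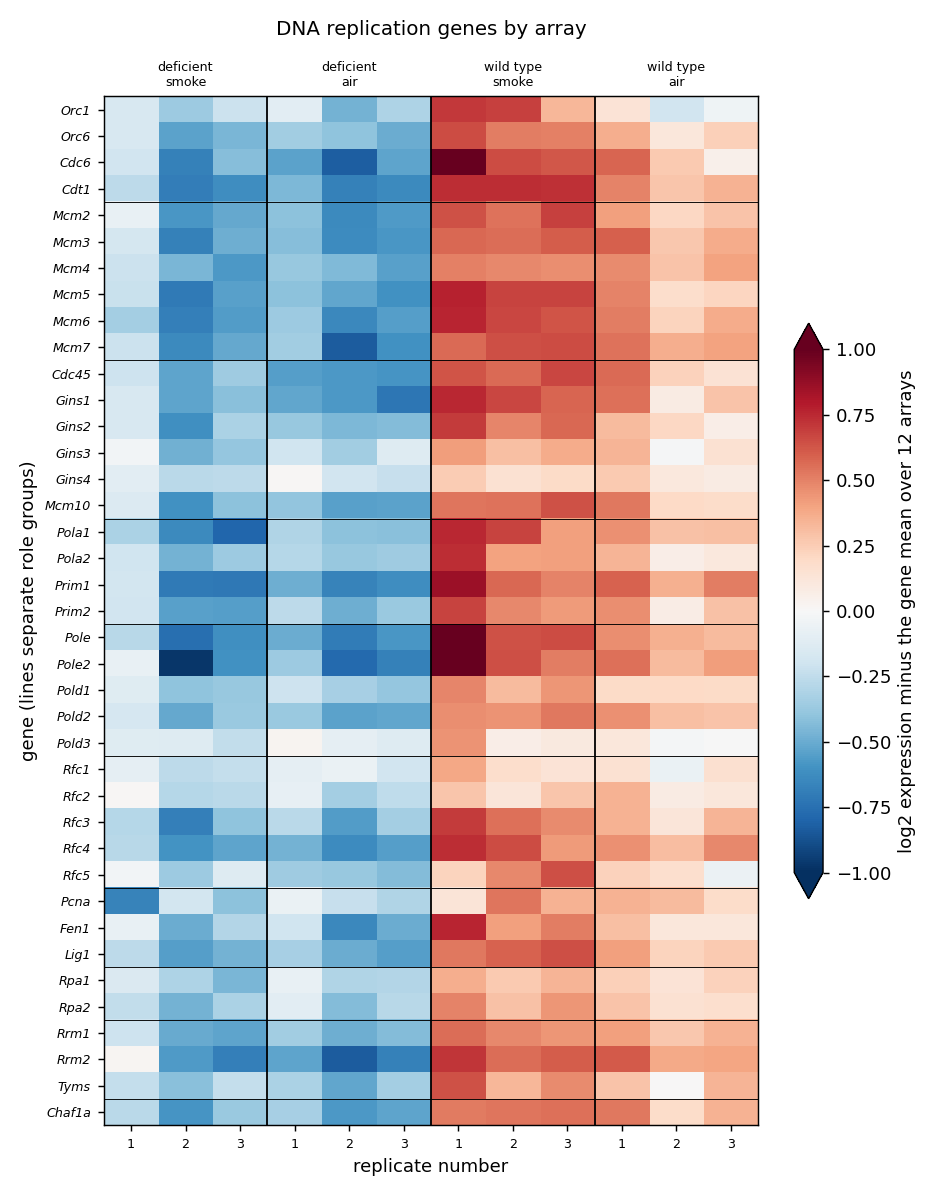
Log2 expression of each gene minus its own mean over the 12 arrays, as colour from -1 to 1, with genes down the page in role groups and arrays across by group and replicate number. The 6 deficient arrays are blue and the 6 wild type arrays red for nearly all genes, and the wild type smoke arrays are the darkest red.

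**Figure D2:**
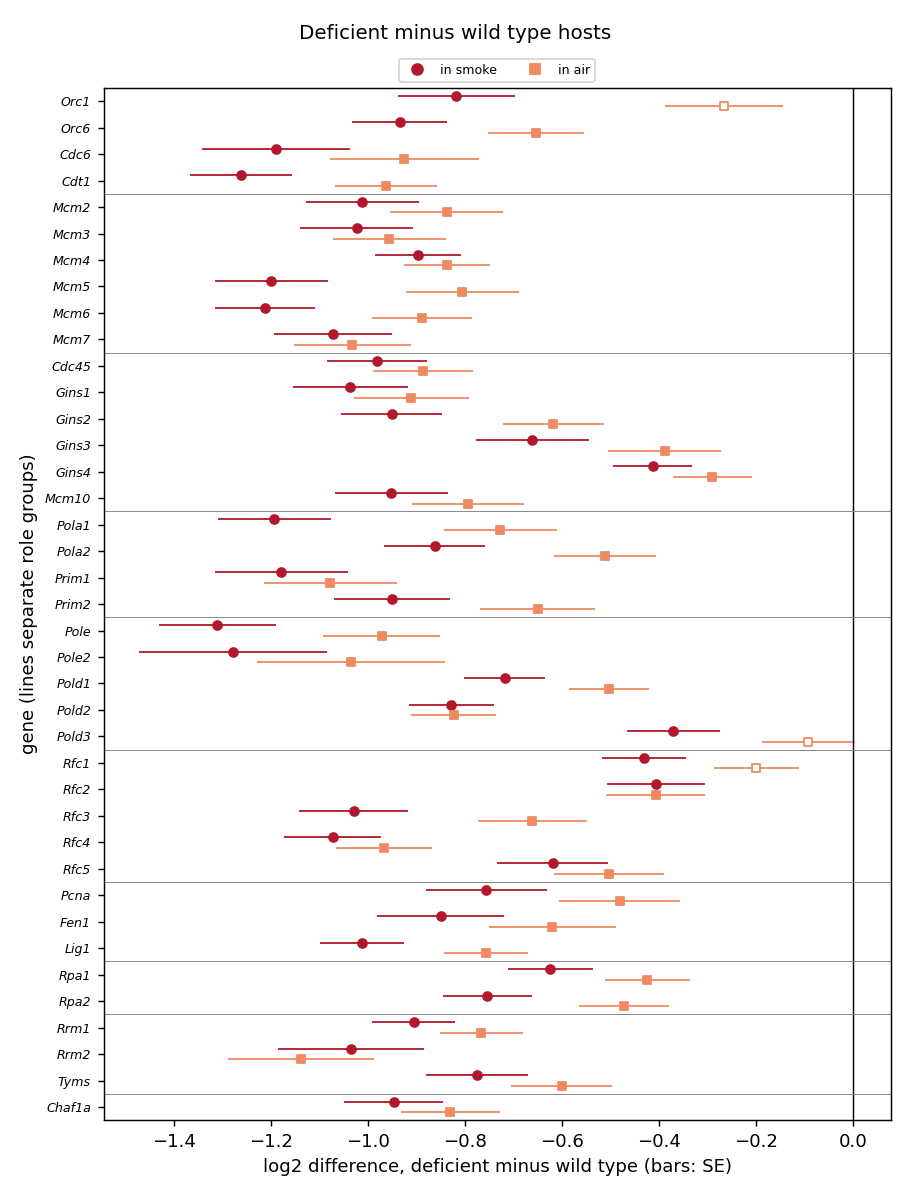
Log2 difference, deficient minus wild type, of the 39 genes in smoke (circles) and in air (squares), with bars of 1 SE from limma; filled marks passed the test. The differences run from -1.31 to -0.37 in smoke and from -1.14 to -0.09 in air, where Orc1, Rfc1 and Pold3 are open.

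Among the licensing factors, 4 of 4 were lower in deficient smoke arrays and 3 of 4 in deficient air arrays, with median differences of -1.06 and -0.79. Cdt1, which brings the MCM ring to the origin, read 9.22, 8.78 and 8.86 in deficient smoke, against 10.21, 10.22 and 10.21 in wild type smoke. In air Cdt1 read 9.03, 8.80 and 8.84 in deficient arrays and 9.98, 9.76 and 9.83 in wild type arrays. The genotypes were apart in both exposures, with differences of -1.26 ± 0.11 in smoke (2.40-fold lower; adjusted p = 3.21e-07) and -0.96 ± 0.11 in air (1.95-fold lower; adjusted p = 8.77e-06). Orc1, the large subunit of the origin recognition complex, read 5.68, 5.47 and 5.62 in deficient smoke, against 6.54, 6.52 and 6.17 in wild type smoke. Its air values were 5.73, 5.36 and 5.52 in deficient arrays and 5.97, 5.65 and 5.80 in wild type arrays. The smoke arrays were apart (-0.82 ± 0.12; adjusted p = 7.23e-05), while the air arrays overlapped (-0.27 ± 0.12; adjusted p = 0.107). A log2 level of 6 was reached by Orc1 in 3 arrays alone, those of wild type smoke, so an intensity filter passed it only through the group where it was high.

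The MCM complex is a ring of Mcm2 to Mcm7 that unwinds DNA ahead of the fork. All 6 subunits were lower in the deficient arrays in both exposures, with medians of -1.05 in smoke and -0.86 in air and a spread among subunits of -1.21 to -0.90 in smoke and -1.03 to -0.81 in air. Mcm7 read 9.74, 9.32 and 9.45 in deficient smoke, against 10.53, 10.60 and 10.61 in wild type smoke. In deficient air Mcm7 was 9.61, 9.13 and 9.35, against 10.50, 10.33 and 10.36 in wild type air. These amounted to differences of -1.07 ± 0.12 in smoke (2.10-fold lower; adjusted p = 5.97e-06) and -1.03 ± 0.12 in air (2.05-fold lower; adjusted p = 1.57e-05). Mcm2 read 9.58, 9.08 and 9.14 in deficient smoke and 10.29, 10.20 and 10.34 in wild type smoke. The air values of Mcm2 were 9.25, 9.02 and 9.09 in deficient arrays and 10.07, 9.86 and 9.94 in wild type arrays. No array of 1 genotype reached the other in either exposure, with differences of -1.01 ± 0.12 (adjusted p = 6.91e-06) and -0.84 ± 0.12 (adjusted p = 6.52e-05). Mcm4, the subunit with the smallest difference averaged over exposures, read 9.11, 8.86 and 8.74 in deficient smoke, against 9.82, 9.80 and 9.78 in wild type smoke. It read 8.94, 8.88 and 8.78 in deficient air, against 9.79, 9.61 and 9.72 in wild type air. Its differences, -0.90 ± 0.09 in smoke (adjusted p = 1.60e-06) and -0.84 ± 0.09 in air (adjusted p = 6.35e-06), were still 1.86-fold and 1.79-fold.

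Helicase activation needs Cdc45, the 4 GINS subunits and Mcm10. All 6 genes were lower in the deficient arrays in both exposures, with medians of -0.95 in smoke and -0.71 in air. Cdc45 read 8.06, 7.74 and 7.91 in deficient smoke, against 8.89, 8.83 and 8.93 in wild type smoke. In air it was 7.72, 7.69 and 7.67 in deficient arrays and 8.83, 8.50 and 8.41 in wild type arrays. The groups were apart, with differences of -0.98 ± 0.10 in smoke (1.97-fold lower; adjusted p = 3.12e-06) and -0.89 ± 0.10 in air (1.85-fold lower; adjusted p = 1.50e-05). Within the GINS complex, whose 4 subunits work in equal numbers, the differences were uneven. Gins1 read 7.72, 7.35 and 7.46 in deficient smoke and 8.63, 8.55 and 8.46 in wild type smoke, with 7.36, 7.30 and 7.15 in deficient air and 8.43, 7.96 and 8.16 in wild type air. Gins4 read 9.14, 8.98 and 8.99 in deficient smoke and 9.50, 9.40 and 9.44 in wild type smoke, with 9.26, 9.06 and 9.01 in deficient air and 9.51, 9.36 and 9.33 in wild type air. Gins1 was lower, with a difference of -1.04 ± 0.12 in smoke (adjusted p = 6.88e-06) and -0.91 ± 0.12 in air (adjusted p = 3.89e-05). Gins4 was lower, with a difference of -0.41 ± 0.08 (adjusted p = 0.00077) and -0.29 ± 0.08 (adjusted p = 0.0116), and its call in air was lost without deficient air replicate 2 or 3 or wild type air replicate 1 (adjusted p = 0.0522 to 0.0607). The difference between the subunits was not tested.

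Polymerase alpha and primase make the primers on both strands. All 4 genes were lower in the deficient arrays in both exposures, with medians of -1.07 in smoke and -0.69 in air. Prim1, the catalytic primase subunit, read 8.62, 8.10 and 8.09 in deficient smoke, against 9.66, 9.38 and 9.30 in wild type smoke. In deficient air Prim1 was 8.32, 8.14 and 8.19, against 9.40, 9.16 and 9.31 in wild type air. The gap was -1.18 ± 0.14 in smoke (2.26-fold lower; adjusted p = 7.42e-06) and -1.08 ± 0.14 in air (2.11-fold lower; adjusted p = 3.00e-05). Pola2, the accessory subunit of polymerase alpha, read 8.79, 8.51 and 8.62 in deficient smoke and 9.72, 9.39 and 9.40 in wild type smoke. Its air values were 8.70, 8.61 and 8.63 in deficient arrays and 9.32, 9.05 and 9.09 in wild type arrays. Pola2 was lower, with a difference of -0.86 ± 0.10 in smoke (adjusted p = 1.13e-05) and -0.51 ± 0.10 in air (adjusted p = 0.00142), with no overlap.

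Of the 5 genes of polymerases epsilon and delta, 5 were lower in deficient smoke arrays and 4 in deficient air arrays, with medians of -0.83 and -0.82. Pole, the catalytic subunit of the leading strand polymerase, had the largest difference of the 39 in smoke, -1.31 ± 0.12 (2.48-fold lower; adjusted p = 8.74e-07), and is named after its value was seen. Pole2, its partner subunit, read 7.77, 6.88 and 7.24 in deficient smoke, against 8.88, 8.49 and 8.36 in wild type smoke. In air Pole2 was 7.49, 7.07 and 7.17 in deficient arrays and 8.41, 8.17 and 8.27 in wild type arrays. Its 3 deficient smoke arrays spread over more of the scale than those of the other genes printed here, and the differences were -1.28 ± 0.19 in smoke (adjusted p = 8.84e-05) and -1.04 ± 0.19 in air (adjusted p = 0.000732). Pold3, an accessory subunit of polymerase delta, read 8.65, 8.64 and 8.52 in deficient smoke, against 9.22, 8.84 and 8.87 in wild type smoke. Its air values, 8.80, 8.69 and 8.64 in deficient arrays and 8.89, 8.75 and 8.77 in wild type arrays, overlapped. Pold3 was lower in smoke, with a difference of -0.37 ± 0.10 (adjusted p = 0.00507), and its air difference of -0.09 ± 0.10 missed the test (adjusted p = 0.516; 95% interval -0.30 to 0.12).

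Replication factor C loads the clamp, and Rfc1 is its large subunit. All 5 subunits were lower in deficient smoke arrays and 4 of 5 in deficient air arrays, with medians of -0.62 and -0.50. Rfc4, a small subunit, read 9.04, 8.72 and 8.79 in deficient smoke, against 10.06, 9.97 and 9.74 in wild type smoke. In air it was 8.85, 8.69 and 8.77 in deficient arrays and 9.78, 9.63 and 9.80 in wild type arrays. The genotypes were well apart, with differences of -1.07 ± 0.10 in smoke (2.10-fold lower; adjusted p = 8.82e-07) and -0.97 ± 0.10 in air (1.96-fold lower; adjusted p = 5.04e-06). Rfc1 read 9.25, 9.08 and 9.10 in deficient smoke and 9.73, 9.51 and 9.48 in wild type smoke. Its air values were 9.25, 9.27 and 9.14 in deficient arrays and 9.49, 9.27 and 9.50 in wild type arrays, apart by less than the last digit printed. Rfc1 was lower, with a difference of -0.43 ± 0.09 in smoke (adjusted p = 0.000967), and the air difference of -0.20 ± 0.09 missed the test (adjusted p = 0.0939).

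At the clamp, flap nuclease and ligase, 3 of 3 genes were lower in the deficient arrays in both exposures, with medians of -0.85 in smoke and -0.62 in air. Lig1, which seals Okazaki fragments, read 8.95, 8.67 and 8.74 in deficient smoke, against 9.74, 9.80 and 9.86 in wild type smoke. Its air values were 8.88, 8.72 and 8.66 in deficient arrays and 9.62, 9.43 and 9.48 in wild type arrays. Lig1 was lower, with a difference of -1.01 ± 0.09 in smoke (2.02-fold; adjusted p = 4.32e-07) and -0.76 ± 0.09 in air (1.69-fold; adjusted p = 1.35e-05). Pcna, the sliding clamp, read 11.03, 11.53 and 11.30 in deficient smoke and 11.83, 12.24 and 12.05 in wild type smoke on its brighter probe set. In air it was 11.64, 11.47 and 11.41 in deficient arrays and 12.05, 12.02 and 11.89 in wild type arrays. The differences were -0.76 ± 0.12 in smoke (adjusted p = 0.000183) and -0.48 ± 0.12 in air (adjusted p = 0.00717). Pcna was the only one of the 39 with a further 1-gene probe set, on which the differences were -0.64 ± 0.07 and -0.54 ± 0.07. Probe sets that named several genes or were not listed were not searched. The probe sets ordered the smoke arrays differently: deficient smoke replicate 1 was the lowest of its group on the brighter one, at 11.03, and the highest on the other, at 10.88. Wild type smoke replicate 1 was likewise the lowest of its group on the brighter one, at 11.83, and the highest on the other, at 11.44. The gene table lists Pcna pseudogenes as well, so the values of Pcna are uncertain to the extent that probes read them. Probe set numbers of the other genes with a window ran in order of chromosome name. The brighter set of Pcna is numbered between Chaf1a (chromosome 17) and Pola2 (chromosome 19). The other set is numbered between Mcm10 (chromosome 2) and Orc1 (chromosome 4), and the window of Pcna lies on chromosome 2. Which locus each set reads was not tested.

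The RPA genes encode the protein that coats single strands, and both were lower in the deficient arrays in both exposures, with medians of -0.69 in smoke and -0.45 in air. Rpa2 read 8.71, 8.49 and 8.64 in deficient smoke and 9.45, 9.25 and 9.40 in wild type smoke, with 8.85, 8.52 and 8.68 in deficient air and 9.24, 9.10 and 9.13 in wild type air. Rpa1 read 9.39, 9.23 and 9.08 in deficient smoke and 9.90, 9.80 and 9.88 in wild type smoke, with 9.46, 9.23 and 9.25 in deficient air and 9.78, 9.67 and 9.77 in wild type air. Neither gene overlapped between genotypes, and the differences were -0.75 ± 0.09 and -0.47 ± 0.09 for Rpa2 (adjusted p = 1.26e-05 in smoke and 0.00103 in air). For Rpa1 they were -0.62 ± 0.09 and -0.42 ± 0.09 (adjusted p = 4.32e-05 and 0.0015).

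Nucleotide supply was represented by both subunits of ribonucleotide reductase, Rrm1 and Rrm2, and by thymidylate synthase, Tyms. All 3 were lower in the deficient arrays in both exposures, with medians of -0.91 in smoke and -0.77 in air. Rrm2 read 10.15, 9.56 and 9.45 in deficient smoke, against 10.85, 10.69 and 10.74 in wild type smoke. In deficient air it was 9.60, 9.30 and 9.46, against 10.74, 10.51 and 10.52 in wild type air. Deficient smoke replicate 1 stood above the 2 others of its group and still below each wild type array. The differences of Rrm2 were -1.04 ± 0.15 in smoke (2.05-fold lower; adjusted p = 5.88e-05) and -1.14 ± 0.15 in air (2.20-fold lower; adjusted p = 4.16e-05), and the air value was the largest of the 39. Tyms read 8.10, 7.92 and 8.10 in deficient smoke and 8.97, 8.67 and 8.81 in wild type smoke, with 8.02, 7.82 and 8.0 in deficient air and 8.62, 8.34 and 8.68 in wild type air. Its differences were -0.78 ± 0.11 (adjusted p = 3.18e-05) and -0.60 ± 0.11 (adjusted p = 0.000434). Chaf1a, the large subunit of the factor that sets histones on new DNA, read 8.35, 8.02 and 8.25 in deficient smoke and 9.14, 9.15 and 9.17 in wild type smoke. Its air values were 8.29, 8.04 and 8.09 in deficient arrays and 9.15, 8.80 and 8.97 in wild type arrays. Chaf1a was lower, with a difference of -0.95 ± 0.10 in smoke (adjusted p = 3.80e-06) and -0.83 ± 0.10 in air (adjusted p = 2.29e-05).

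Smoke against air within each genotype was compared next; these comparisons share their arrays with those between genotypes. In wild type hosts, 14 of the 39 genes were higher in smoke and 0 lower, against a background of 15.0% of all genes higher and 14.0% lower (29.0% in either direction). All 39 had a difference above 0, as had 64.7% of all genes, and the median was 0.26 against 0.08 over all genes. For 20 of the 39 the smoke arrays lay above the air arrays, as for 20.8% of all genes tested. All 4 licensing genes rose: Orc1 by 0.60 ± 0.12 (adjusted p = 0.00229), Cdc6 by 0.46 ± 0.15 (adjusted p = 0.0388), Cdt1 by 0.36 ± 0.11 (adjusted p = 0.0218) and Orc6 by 0.31 ± 0.10 (adjusted p = 0.0309). The Orc1 values given above show the 3 wild type smoke arrays, at 6.17 to 6.54, over the 3 wild type air arrays, at 5.65 to 5.97. Of the other roles, 2 of 6 MCM subunits, 3 of 6 activation genes, 1 of 4 of polymerase alpha and primase, 1 of 5 of polymerases epsilon and delta, 1 of 5 of the clamp loader and 2 of 3 of the clamp group rose. None of the RPA, nucleotide and histone genes passed.

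Mcm5 rose in wild type smoke by 0.41 ± 0.12 (adjusted p = 0.0183), Gins2 by 0.39 ± 0.10 (adjusted p = 0.0144), Pole by 0.38 ± 0.12 (adjusted p = 0.0316), Pola2 by 0.35 ± 0.10 (adjusted p = 0.0244) and Lig1 by 0.29 ± 0.09 (adjusted p = 0.0256). Each is a rise of less than 1.5-fold on the linear scale. The count of 14 rested on single arrays: it was 1 without wild type air replicate 3, 2 without wild type air replicate 2, 6 without wild type smoke replicate 1, 8 without wild type smoke replicate 2 and 9 without deficient air replicate 3. It was 8 when the 6 wild type arrays were fitted alone. With each array centred on its median over the genes tested it was 29, and the background of genes higher was then 38.1%. Without the 4 arrays numbered 1 it was 19. The rise of Orc1 passed under every alternative run. The intensity filter kept Orc1 only through the wild type smoke arrays, where it was high, so that run is no check of the rise. Over the same arrays all 9 alveolar and all 7 endothelial markers fell with smoke in wild type hosts, while 7 of 8 macrophage and monocyte markers rose (median 1.04), as did 4 of 5 neutrophil markers (median 0.52), and of 5 fibroblast markers 3 rose and 2 fell (median 0.43). Their part in the rises was not tested.

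In deficient hosts 0 of the 39 genes passed the limma test between smoke and air, against a background of 2.41% of all genes in either direction (0.692% higher and 1.72% lower), and 0 had an unadjusted p under 0.05, as 10.5% of all genes had. The differences ran from -0.22 (Pcna, on its brighter probe set) to 0.27 (Rrm2), 27 above 0 and 12 below, with a median of 0.05. The median was -0.07 to 0.13 when 1 array was left out, lowest without deficient smoke replicate 1 and highest without deficient smoke replicate 2, and -0.03 without the 4 arrays numbered 1. On the other probe set of Pcna the difference was 0.02 ± 0.07, and the next lowest gene was Pola1 at -0.21 (95% interval -0.46 to 0.05). The 95% intervals of single genes were wide, between -0.49 at the lowest for Pcna and 0.59 at the highest for Rrm2, so a difference of the size seen in wild type hosts lay within some of them. For Cdt1 the difference was 0.06 (95% interval -0.17 to 0.29) and for Orc1 0.05 (-0.21 to 0.31). Cdc45 was the only one of the 39 whose smoke arrays all lay above the air arrays, at 7.74 to 8.06 against 7.67 to 7.72, as was the case for 8.97% of all genes. Its difference was 0.21 ± 0.10 (adjusted p = 0.541).

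**Figure D3:**
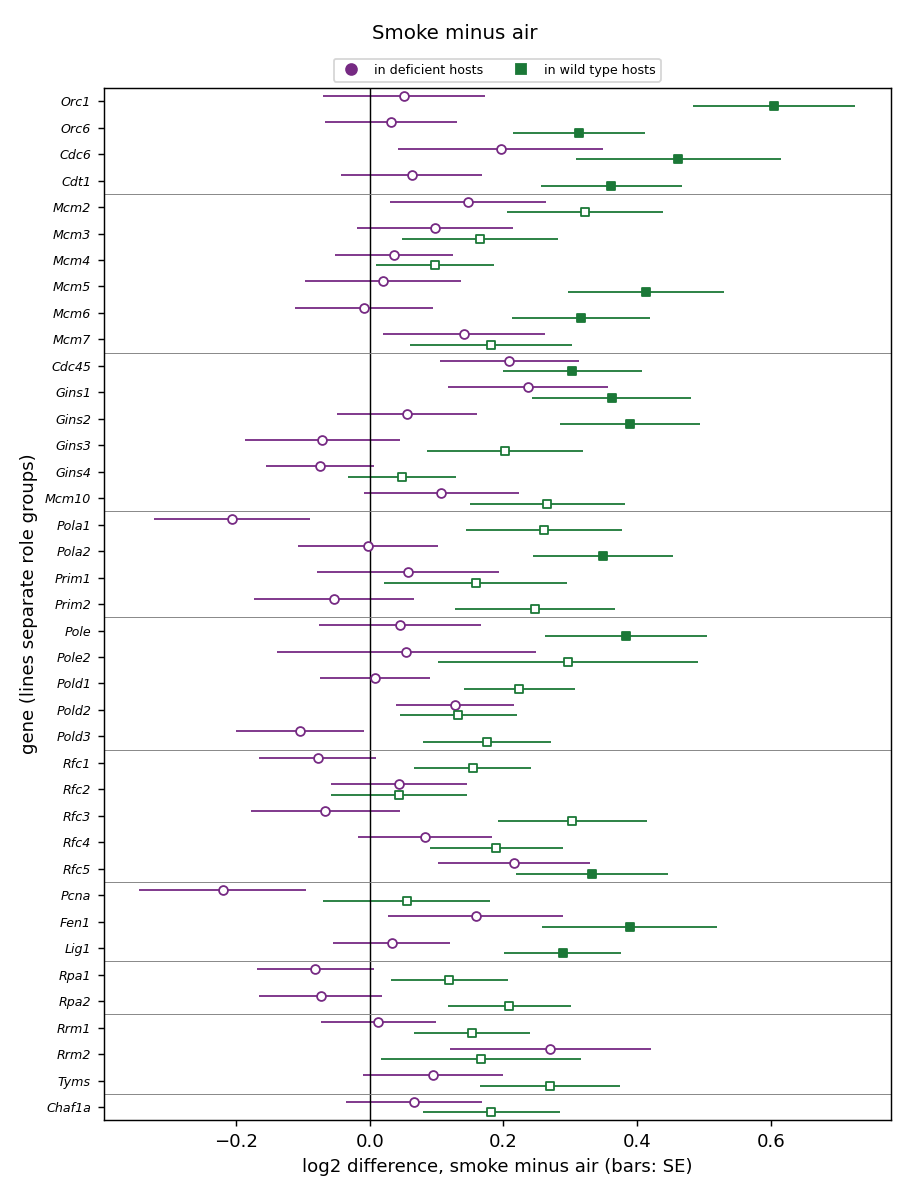
Log2 difference, smoke minus air, of the 39 genes in deficient hosts (circles) and wild type hosts (squares), with bars of 1 SE from limma; filled marks passed the test. In deficient hosts all marks are open and lie from -0.22 to 0.27; in wild type hosts 14 are filled and all lie above 0, up to 0.60 for Orc1.

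The difference between these smoke differences, deficient minus wild type, was tested as the interaction. It passed for 1 of the 39 genes, Orc1, at -0.55 ± 0.17 (adjusted p = 0.0475), against a background of 5.70% of all genes lower and 14.6% in either direction. An unadjusted p under 0.05 was found for 7 of the 39 (17.9%), against 27.4% of all genes. The estimates were below 0 for 37 of the 39 genes, as for 64.1% of all genes, with a median of -0.23 against -0.08 over all genes. The count moved with the setting: it was 6 without the 4 arrays numbered 1, 4 without deficient smoke replicate 1 and 0 with a trended robust prior. Without the arrays numbered 1, Cdt1 passed at -0.42 (adjusted p = 0.0199), Pola2 at -0.37 (adjusted p = 0.0348) and Lig1 at -0.36 (adjusted p = 0.0407), by the same limma test. The call of Orc1 was lost in 12 of the alternatives tried (adjusted p = 0.0511 to 0.125). It was lost without any 1 array other than wild type air replicate 1, wild type smoke replicate 3 and deficient air replicate 2.

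Other genes of replication and S phase, taken from a list of 67 of which 65 were measured, moved mostly the same way. In smoke 51 were lower and 6 higher in the deficient arrays, with a median of -0.65, and in air 46 were lower and 6 higher, with a median of -0.50. Of all genes tested, 37.0% were lower and 22.7% higher in smoke, and 18.0% and 20.5% in air. In smoke the smallest p-values were those of Ccna2, the cyclin of S phase and G2 (-1.61 ± 0.13), Dtl, which targets Cdt1 for destruction (-1.67 ± 0.14), Chaf1b (-0.84 ± 0.07), Samhd1 (0.99 ± 0.09), the thymidine kinase Tk1 (-1.31 ± 0.12) and the origin firing factor Mtbp (-1.13 ± 0.10). In air they were those of Samhd1 (1.15 ± 0.09), the dUTPase Dut (-1.08 ± 0.11), Dtl (-1.36 ± 0.14), Mtbp (-0.97 ± 0.10), Tk1 (-1.08 ± 0.12) and Tipin, of the fork protection complex (-1.10 ± 0.12). Samhd1 goes against most of the list; it encodes an enzyme that breaks down deoxynucleotides and is abundant in myeloid cells. Rb1, the retinoblastoma protein that holds E2F factors back, was likewise higher, by 1.11 ± 0.11 in smoke and 0.93 ± 0.11 in air, as was its relative Rbl2, by 0.32 ± 0.06 and 0.39 ± 0.06. Rrm2b, the ribonucleotide reductase subunit of resting and damaged cells, was higher by 0.49 ± 0.07 in smoke and 0.31 ± 0.07 in air. E2f2 was higher by 0.37 ± 0.08 in air and did not pass in smoke (-0.07 ± 0.08).

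With smoke in wild type hosts, 16 of these 65 genes were higher (24.6%) and 3 lower (4.62%), against 15.0% and 14.0% of all genes. Over all genes 29.0% passed in either direction, and 46 of the 65 passed in neither. In deficient hosts 0 of the 65 passed, against 2.41% of all genes. E2f4 (0.37 ± 0.07), Chtf18 (0.44 ± 0.08), Chaf1b (0.37 ± 0.07), Pole3 (0.30 ± 0.06) and E2f2 (0.36 ± 0.08) were among the 16. The 3 lower were Rrm2b (-0.34 ± 0.07), the kinase inhibitor Cdkn1b (-0.31 ± 0.08) and Rb1 (-0.39 ± 0.11). The interaction passed for 6, all lower: Chaf1b, Pole3, E2f2, Rnaseh2b, Recql4 and Chtf18, between -0.51 and -0.34. These were 9.23% of the 65, against 5.70% of all genes lower and 14.6% in either direction. Mitotic genes, which act after replication, gave larger values in the same directions: 23 of 23 measured were lower in the deficient arrays in both exposures, with medians of -1.56 in smoke and -1.16 in air. In smoke against air, 11 of the 23 rose in wild type hosts, as did 15.0% of all genes, and 0 passed in deficient hosts. The difference between these lists and the 39 genes was not tested.

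Markers of lung cells moved with the same groups. The 9 alveolar epithelial markers that were higher in the deficient arrays all fell with smoke in wild type hosts (median -1.90). Sftpc, the surfactant protein of alveolar type II cells, averaged 14.06 in deficient smoke, 14.12 in deficient air, 12.31 in wild type smoke and 13.89 in wild type air, so a transcript of lung epithelium was measured in all 4 groups of samples labelled as carcinoma. The mean of the alveolar list was 11.72 to 11.86 in deficient smoke, 11.77 to 11.82 in deficient air, 8.71 to 8.89 in wild type smoke and 10.91 to 11.12 in wild type air. The 7 endothelial markers were likewise all higher in the deficient arrays, by medians of 2.05 in smoke and 0.98 in air, with list means of 11.24 to 11.41, 11.26 to 11.30, 8.92 to 9.0 and 10.21 to 10.39 in the same order of groups. Airway epithelial markers were higher in 6 of 6 in smoke and 4 of 6 in air, with means of 10.50 to 10.60, 10.59 to 10.65, 7.34 to 7.44 and 9.92 to 10.16. These markers of normal lung were thus higher in deficient than in wild type arrays and lowest in wild type smoke, the reverse of the replication genes.

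Lymphocyte lists ran the same way between genotypes, but unlike the lung lists they also fell with smoke in deficient hosts. There 4 of 8 T and NK genes were lower in smoke (median -0.45), as were 3 of 4 B and plasma genes (median -0.74). The T and NK cell list was higher in the deficient arrays for 8 of 8 genes in both exposures, by medians of 1.95 in smoke and 1.58 in air, with means of 7.97 to 8.10 in deficient smoke, 8.47 to 8.56 in deficient air, 6.12 to 6.41 in wild type smoke and 6.78 to 6.99 in wild type air. The B and plasma cell list was higher for 4 of 4 measured genes in both, with means of 7.49 to 7.67, 8.56 to 8.65, 5.87 to 6.24 and 7.07 to 7.28 in that order. Neutrophil markers were higher for 5 of 5 in both, with means of 7.68 to 7.87, 7.19 to 7.29, 6.81 to 6.95 and 6.34 to 6.45. Macrophage and monocyte markers differed between the exposures: in deficient arrays 1 of 8 was higher and 5 lower in smoke (median -0.57), while 7 were higher in air (median 0.64). With smoke in wild type hosts 7 of the 8 rose (median 1.04), and the interaction was below 0 and passed for 7 (median over the 8 of -1.10). Their list means were 10.30 to 10.47 in deficient smoke, 10.50 to 10.58 in deficient air, 10.58 to 10.72 in wild type smoke and 9.78 to 9.90 in wild type air. Of 3 erythroid genes 2 were higher in both exposures, and of 5 fibroblast genes 2 were higher and 3 lower in smoke and 2 higher and 2 lower in air. The lowest array mean of any of these lists was 5.87, that of B and plasma cells in wild type smoke. The part of cell makeup in the values of the replication genes was not tested.

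**Figure D4:**
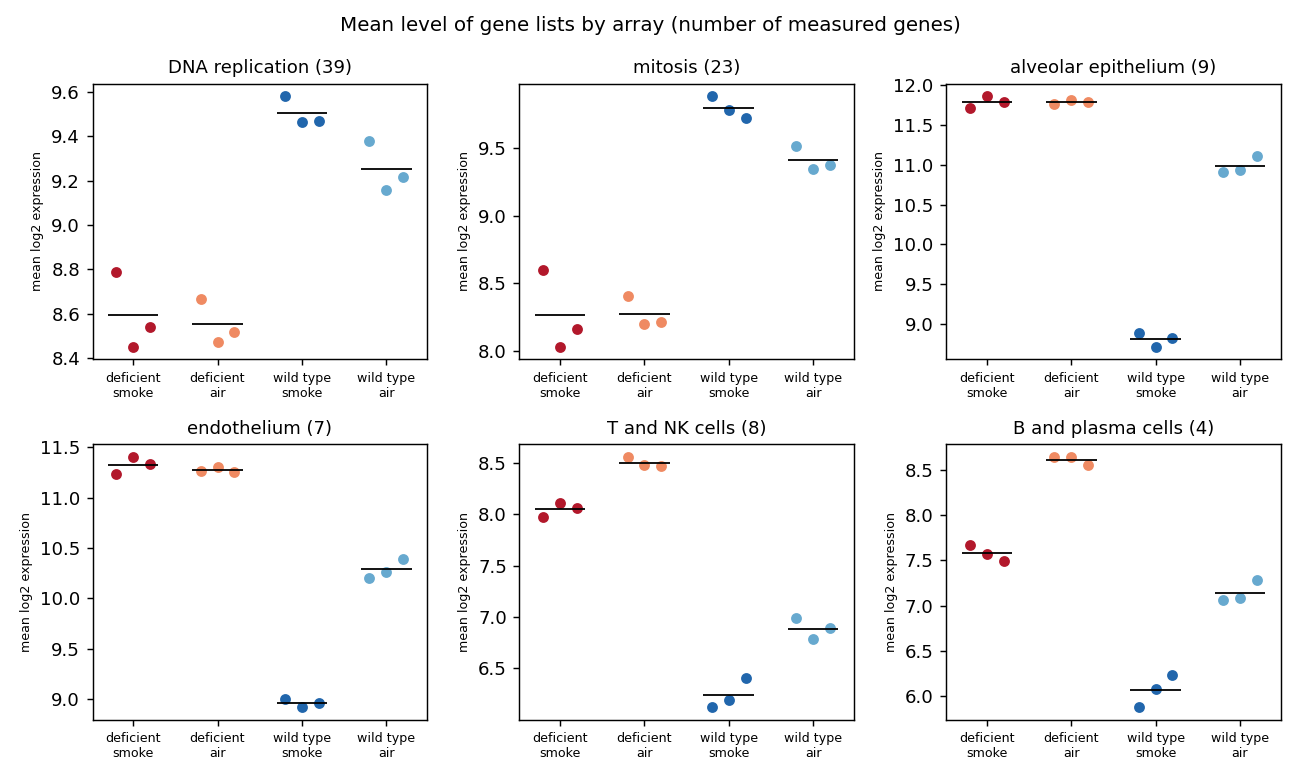
Mean log2 expression of 6 gene lists in each array, by group, with a line at the group mean; each panel has its own scale, which does not start at 0. DNA replication and mitotic genes are highest in wild type smoke arrays, at 9.46 to 9.58 for replication, and the alveolar, endothelial and lymphocyte lists are lowest there.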

How the data were processed

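RNA of 12 tumour samples (4 groups of 3) was measured on Affymetrix arrays. The deposited values are log2 expression that the authors made with RMA in Affymetrix Expression Console, per the submitters' processing notes; RMA removes background, quantile normalizes and combines probes, so a level holds within a probe set and not between genes. They were used without further normalization. Of 34760 probe sets, 21640 named 1 gene in the platform annotation, 1321 several, and 11799 were not listed; each gene took its brightest 1-gene probe set, which gave 19937 genes with no intensity filter. The 39 genes were matched by symbol.

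A model of 4 group means over the 12 arrays was fitted with limma 3.58.1 (R 4.3.3; lmFit and eBayes, residual df 8, prior df 4.83). Contrasts were 2-sided and adjusted by Benjamini-Hochberg over all genes, with a limit of 0.05. The method was tested on simulated arrays with independent errors and few shifted genes. That setting differs from these data, where many genes were called, so it is no check of the counts given here. Genes with array values were, per role, those with the largest and smallest genotype difference averaged over exposures, and Mcm2, Cdc45, Pcna and Rrm2; other genes were named by smallest p or by moving against their list. The genes and lists were chosen with earlier results of these data known. Promoter windows came from a RefSeq table (GRCm38.p6), matched by symbol and searched in Python 3.11.15 with pandas 2.3.3; figures used matplotlib 3.10.9. The number of arrays limits the precision. The model has no replicate block. Alternatives were an intensity filter, the mean of probe sets, centring, repeated quantile normalization, a trended robust prior, array weights, the replicate block, the 6 arrays of a comparison, and leaving out each array; centring over the genes tested and leaving out the 4 arrays numbered 1 were added after seeing the data.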

Additional observations from a re-analysis of the deposited data

Results flagged for a closer look

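The smoke difference of Orc1 in deficient hosts minus that in wild type hosts was -0.55 ± 0.17 (limma interaction, adjusted p = 0.0475), which marks it because the genotypes differed in their response by a test of the difference itself. The call was lost in 12 alternatives (adjusted p = 0.0511 to 0.125), among them leaving out any 1 array but wild type air replicate 1, wild type smoke replicate 3 and deficient air replicate 2, and 14.6% of all genes passed this test. The smoke difference was 0.05 ± 0.12 in deficient hosts and 0.60 ± 0.12 in wild type hosts. The 3 wild type smoke arrays were the only ones in which Orc1 reached a log2 level of 6.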

How the results depend on the processing

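Counts of the 39 genes lower in deficient arrays stayed at 39 in smoke under all alternatives run and between 34 and 38 in air, and smoke against air in deficient hosts gave 0 throughout. Leaving out 1 array gave 34 to 37 in air. The count of genes higher with smoke in wild type hosts, 14, was 8 in the 6 arrays alone, 29 with centring over the genes tested and 1 to 16 when 1 array was left out; other settings gave 12 to 20. The interaction count, 1, was 0 with a trended robust prior, 2 with array weights, 2 with centring over the genes tested, 6 without the 4 arrays numbered 1, 7 with the replicate block and 0 to 4 when 1 array was left out (4 without deficient smoke replicate 1). Orc1 lost its interaction call in 12 alternatives (adjusted p = 0.0511 to 0.125). Over all genes, deviations of same-number arrays in different groups correlated above 0.1 in 7 of 18 pairs (r from -0.36 to 0.37). An array correlated best with its own number in 17 of 36 trials, a count that was not tested against chance. These values do not settle whether the numbers are pairs, and the main model did not take them as such. Replicate 1 was also the highest of its group for 38 of the 39 genes in deficient smoke, 36 in deficient air, 28 in wild type smoke and 35 in wild type air, a hint from the data and not the design. The replicate block gave 36 genes in air, 39 in smoke and 20 in wild type smoke. No named gene that was called turned its direction.

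Over all genes, calls for smoke in deficient hosts were 481, against 1368 with array weights, 1018 in the 6 arrays alone, 307 without the arrays numbered 1 and 261 to 320 without any 1 of these 6 arrays. For smoke in wild type hosts they were 5778, against 10211 with array weights, 3454 in the 6 arrays alone, 9852 with centring over the genes tested, 3695 without wild type air replicate 3 and 8824 without wild type smoke replicate 1. For the interaction they were 2909, against 4969 without wild type smoke replicate 1 and 6662 with array weights. Centring over the genes tested moved the median of all genes between genotypes in smoke to -0.28, against -0.14 as reported. Such centring also moved the share of calls that were higher to 22.9% against 38.0% (genotype in smoke), 39.6% against 53.2% (genotype in air), 77.1% against 51.8% (smoke in wild type hosts) and 41.4% against 61.0% (interaction); array weights gave 44.2% for the interaction. The cause of these shifts was not tested. Precision is limited by how few arrays there were.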
